A study of Arabidopsis thaliana with 21 samples.

Results

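The libraries compared here came from Arabidopsis seedlings that expressed phyB-GFP, a fusion of the red light receptor phytochrome B with green fluorescent protein, either full-length (FL) or without the end of its C-terminal histidine kinase-related domain (ΔC). They were the 3 FL and the 3 ΔC libraries made after 1 h of red light, 6 of the 21 libraries of the series. The samples were chosen by line and light alone. Both lines carried the phyA-211 and phyB-9 mutations, so that the fusion stood in for the missing phytochrome B in a plant also mutant for phytochrome A. Whole 3-day-old seedlings were used. They were germinated under white light, exposed to far-red light to return phytochromes to the inactive form, kept in darkness and then exposed to red light or collected in the dark. The 3 dark libraries of each line served here to tell differences that were already present before the light. The labels name the construct and not the transgenic line, and the paper describes more than 1 independent line of each construct. They do not say whether more than 1 insertion event was used, nor whether the replicates came from separate cultures. Hence p-values measure the spread between these libraries, and the deletion cannot be told apart from other differences between the lines.

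Phytochrome B is converted by red light to an active form that enters the nucleus, gathers in nuclear bodies and acts on the PIFs, basic helix-loop-helix transcription factors that keep seedlings etiolated. In darkness the ubiquitin ligase complex of COP1 and the SPA proteins removes HY5 and other activators of photomorphogenesis, and light reverses this. Within the first hour of light, genes of transcription factors such as HY5, the B-box (BBX) proteins, the GLK factors and several clock genes respond before most genes of the photosynthetic apparatus. The comparison asks which genes differ between the lines after red light.

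Of 33655 features counted, 20459 passed the filter on low counts and were tested. In red light 599 of them (2.93%) differed between the lines at an adjusted p under 0.05, 228 higher in ΔC (1.11%) and 371 lower in ΔC (1.81%), and 342 (1.67%) also differed by more than 1.5-fold. The median absolute log2 difference of the 599 genes was 0.692, and the median over all genes tested was -0.0067. Expression is given as CPM, a gene's counts relative to its library size after scaling by TMM factors, and differences are log2 of ΔC over FL with the standard error, so that a negative value is lower in ΔC. The red light libraries held 15678019 to 24595649 counts, and 3 counts, taken as the floor of detection, equalled 0.121 to 0.191 CPM. The counts of the FL libraries 1 and 2 differed from each other by a chi-square of 4.5 per gene, whereas FL library 3 differed from them by 19.3 and 30.7. The ΔC pairs lay between 3.55 and 9.24. Without FL library 3 the fit gave 636 genes. It gave 209 without ΔC library 2, 221 without ΔC library 3 and 394 without FL library 1, so the number of genes rests on those libraries. The gene lists below and their members were chosen with earlier results of these data known. Their counts are set beside the share over all genes as a description and are not independent support.

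PHYB itself was read at 1283, 1390.1 and 928 CPM in the FL libraries and at 1373, 1328 and 1252 CPM in the ΔC libraries in red light. The ranges overlapped, and the difference of 0.13 ± 0.13 did not pass the test (adjusted p = 0.654). Counts of a whole gene join the transgene with the mutated gene and do not show which part of the coding sequence is missing. PHYA, the far-red receptor gene mutated in both lines, stood at 36.1, 37.3 and 32.3 CPM in FL and at 42.7, 44.4 and 48 CPM in ΔC after red light (0.36 ± 0.07, adjusted p = 0.0159). The ΔC values were all higher, and the call was lost without ΔC library 2 or 3. In darkness PHYA lay between 73.7 and 78.7 CPM in every library of both lines.

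The list of HY5, GLK and GATA factors, transcription factors of the response to light and of greening, held 6 tested genes. Of these, 3 were lower in ΔC after red light, against 1.81% of all genes. None was called in darkness, against 1.88% of all genes, which does not set a list of 6 apart. The median difference was -0.57 in red light and 0.2 in darkness. HY5, the bZIP activator of photomorphogenesis, was at 120.3, 115 and 147 CPM in FL and at 74.2, 75.5 and 72.9 CPM in ΔC. It stood at 25 to 30.4 CPM in the dark libraries of FL and at 25.1 to 29.7 CPM in those of ΔC, so both lines were higher in red light than in darkness and ΔC less so. The difference in red light was -0.78 ± 0.1 (adjusted p = 0.000801) and that in darkness 0.05 ± 0.11 (adjusted p = 0.893). GLK2, which drives genes of chloroplast development, was at 266, 242 and 348 CPM in FL against 166, 175 and 183 CPM in ΔC (-0.71 ± 0.12, adjusted p = 0.00805). GNL, a GATA factor that promotes greening, was at 15.8, 16.3 and 27 CPM against 6.88, 8.28 and 8.96 CPM (-1.28 ± 0.2, adjusted p = 0.00403). The 3 genes kept their calls when each red light library was left out in turn. FL library 3 had the highest value of all 3 genes.

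**Figure D1:**
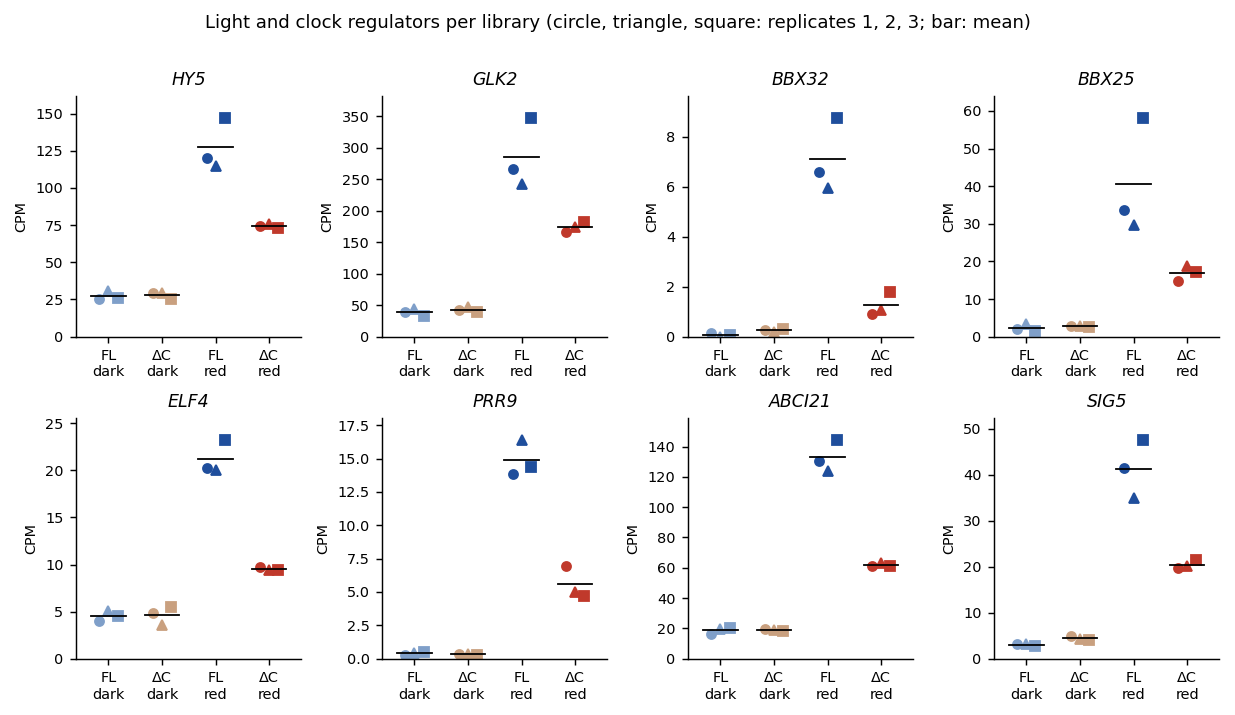
CPM of 8 light and clock regulators in each of the 12 phyB-GFP libraries, by line and light, with the mean of each group as a bar. In red light the 3 ΔC libraries lie below the 3 FL libraries for every gene, while in darkness none of the 8 was called. HY5 in darkness is at 25 to 30.4 CPM in FL and 25.1 to 29.7 CPM in ΔC. The dark values of SIG5, 2.71 to 3.29 CPM in FL and 4.11 to 4.93 CPM in ΔC, do not overlap. Those of BBX32, 0 to 0.154 CPM and 0.202 to 0.303 CPM, do not overlap either.

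Of 13 B-box genes, whose zinc finger proteins act with or against HY5, 9 were lower and 1 was higher in ΔC in red light. Over all genes 1.81% were lower and 1.11% higher, and the median difference of the B-box genes was -0.52. In darkness 1 B-box gene was higher and none was lower, against 0.802% and 1.08% of all genes, with a median of 0.06. BBX32, a repressor of light signalling that acts on other BBX proteins, had the widest difference, with 6.59, 5.94 and 8.76 CPM in FL and 0.891, 1.05 and 1.8 CPM in ΔC (-2.47 ± 0.27, adjusted p = 0.000267). In the dark libraries of FL it lay at or under the floor. BBX25, a partner of HY5 that restrains its activity, was at 33.5, 29.8 and 58.2 CPM in FL and 14.8, 18.7 and 17.1 CPM in ΔC (-1.26, adjusted p = 0.00805). Its close relative BBX24 was at 329, 299 and 394 CPM against 222, 242 and 251 CPM, a smaller difference of -0.52 (adjusted p = 0.00967). BBX28, BBX29, BBX31, BBX18, BBX19 and BBX22 completed the lower group with -0.72, -1.07, -0.87, -0.85, -0.52 and -0.37. The exception was BBX23, another partner of HY5, at 3.95, 3.36 and 4.05 CPM in FL and 8.79, 10 and 10.5 CPM in ΔC (1.38 ± 0.17, adjusted p = 0.000566). BBX23 was also the B-box gene higher in ΔC in darkness (0.63, adjusted p = 0.0257), where both lines had more of it, with 17.37 to 24.8 CPM in FL and 27.1 to 35.3 CPM in ΔC. Without FL library 3, 9 B-box genes were lower and 1 higher, and without ΔC library 2 or ΔC library 3, 6 were lower and 1 higher.

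Many genes of the circadian clock were lower in ΔC in red light. Of 23 clock genes tested, 13 were lower, against 1.81% of all genes, and none was higher, and 21 had a negative difference, with a median of -0.46. In darkness 2 were higher and 1 was lower, against 0.802% and 1.08% of all genes, and the median was 0.03. PRR9, a pseudo-response regulator that represses the morning genes and is quickly induced by light, was at 13.8, 16.4 and 14.4 CPM in FL and 6.94, 5.01 and 4.73 CPM in ΔC (-1.44 ± 0.15, adjusted p = 0.000192). ELF4, a subunit of the evening complex, was at 20.2, 20 and 23.2 CPM against 9.74, 9.45 and 9.37 CPM (-1.15 ± 0.13, adjusted p = 0.000259), while its dark values of 3.95 to 5.02 CPM in FL and 3.63 to 5.45 CPM in ΔC overlapped. LNK3, of the family of LNK co-activators, was at 87.6, 81.6 and 87.5 CPM against 58.2, 57.2 and 61.7 CPM (-0.53 ± 0.06, adjusted p = 0.000419). For all 3 genes every ΔC library was below every FL library. RVE3, a relative of the morning factors, differed by -1.31 ± 0.16 (adjusted p = 0.000594). The others were FKF1 (-0.97), PRR5 (-0.81), GI (-0.68), RVE7 and LNK4 (-0.55 each), RVE1 and PRR7 (-0.51 each), TOC1 (-0.46) and LNK1 (-0.31). GI, a plant-specific protein of the clock and of flowering time, was at 168, 169.6 and 154 CPM in FL and 104, 104 and 99.7 CPM in ΔC. LHY, a morning factor at the centre of the clock, behaved otherwise. It was at 193, 182 and 229 CPM in FL and 186, 201 and 213 CPM in ΔC in red light, and its dark values were 47.4 to 50.8 CPM in FL and 85.7 to 102 CPM in ΔC (0.92, adjusted p = 0.000172). The number of clock genes lower in ΔC was 11 to 13 when each red light library was left out in turn, and no clock gene was higher in those fits.

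Beside the clock, 2 of 9 genes of the CDF, CONSTANS and COR27/28 list were lower in ΔC in red light, against 1.81% of all genes. They were CDF3, a DOF repressor of flowering genes (-0.32, adjusted p = 0.0348), and COR27, a light- and cold-responsive clock regulator (-1.02, adjusted p = 0.00114). The call of CDF3 was lost when any single red light library was left out, and COR27 was as much lower in darkness (-1.02, adjusted p = 0.000587). RPT2, a partner of the phototropins, and PKS1, a substrate of phytochrome in phototropism, also had less transcript in ΔC in red light (-0.6 and -0.49).

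The ABC transporter genes ABCI20 and ABCI21, which are induced by light and act in cytokinin responses, were lower in ΔC in red light. ABCI21 was at 131, 124 and 144 CPM in FL and 61.3, 63.3 and 60.9 CPM in ΔC in red light (-1.11 ± 0.07, adjusted p = 7.18e-06). In darkness it was at 16.6 to 20 CPM in FL and 18.5 to 19.5 CPM in ΔC (0.02 ± 0.08, adjusted p = 0.941). ABCI20 was at 102, 107 and 126 CPM against 59, 55.3 and 56.2 CPM (-0.98 ± 0.08, adjusted p = 3.76e-05). Both lines had more of each transcript in red light than in darkness, and ΔC had less of it than FL. ABCI19, the remaining member of the group, did not pass the test. SIG5, the sigma factor of plastid RNA polymerase that responds to light, was at 41.6, 34.9 and 47.6 CPM in FL and 19.8, 20.1 and 21.5 CPM in ΔC (-1.01 ± 0.11, adjusted p = 0.000194). It was the only 1 of 6 sigma factor genes called, against 1.81% of all genes called lower.

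Of the 4 SPA genes, 3 were lower in ΔC in red light as well, by less. SPA1 was at 178, 175 and 176 CPM in FL and 123, 136 and 141 CPM in ΔC (-0.4 ± 0.06, adjusted p = 0.00325). In darkness the order was turned, with 31.7 to 32.2 CPM in FL and 39.6 to 43.1 CPM in ΔC (0.39 ± 0.07, adjusted p = 0.0085). SPA3 showed the same pair of directions, with -0.49 in red light (adjusted p = 0.0107) and 0.41 in darkness (adjusted p = 0.0472). SPA4 was lower in red light (-0.35, adjusted p = 0.0329), a call that was lost without FL library 3 or without any of the ΔC libraries. SPA2 (0.11 ± 0.09, adjusted p = 0.573) and COP1 (-0.17 ± 0.06, adjusted p = 0.171) did not pass. SPA1, SPA3 and SPA4 were the 3 of 9 genes called in the list of COP1/SPA and DET1 complexes, against 1.81% of all genes called lower.

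Whether the difference between the lines in red light differed from that in darkness was tested by an interaction term for line by light, which uses the libraries of both comparisons. The interaction passed for 21 genes (0.103%), all with a negative value. Each had a higher mean CPM in red light than in darkness in both lines, with a smaller log2 rise in ΔC. The number of genes that passed was 6 to 38 when single libraries were left out, 6 without FL dark library 1 or 3 and 38 without FL red library 2. The genes included ABCI21 (-1.13 ± 0.11, adjusted p = 0.00226), ABCI20 (-1.09), SPA1 (-0.79), SIG5 (-1.56), SPA3 (-0.89), LNK3 (-0.72), ELF4 (-1.19), RPT2 (-0.96) and PKS1 (-0.61). For HY5 it was -0.83 ± 0.14 (adjusted p = 0.0559) and for BBX32 -4.24 ± 0.79 (adjusted p = 0.0773), above the threshold, and for most of the genes named above the interaction did not pass. ABCI21, ABCI20, SPA1, SIG5, RPT2 and AT5G15950 kept the call under each of the 19 alternatives tried. Of the other genes given here, PKS1 lost it in 11, ELF4 and LHCB1.1 in 10, LNK3 in 9, SPA3 in 7, LHY in 6 and ELIP1 and TZP in 2. Among the 21 genes, 5 were called higher in ΔC in darkness and were not called in red light. ELIP1, an early light-induced protein, was at 10.4 to 16.1 CPM in FL and 42.5 to 50.4 CPM in ΔC in darkness (1.81 ± 0.23, adjusted p = 0.00116). After red light it was at 199, 184 and 354 CPM in FL and 148, 175 and 186 CPM in ΔC (-0.53, adjusted p = 0.215). LHCB1.1, a light-harvesting protein with near-identical copies, TZP, a zinc finger regulator of growth, and LHY had dark differences of 1.32, 0.85 and 0.92 and red light differences of -0.89, -0.2 and -0.007. AT2G46420, the remaining gene of the 5, differed by 0.46 in darkness (adjusted p = 0.0192) and by -0.25 in red light (adjusted p = 0.138).

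**Figure D2:**
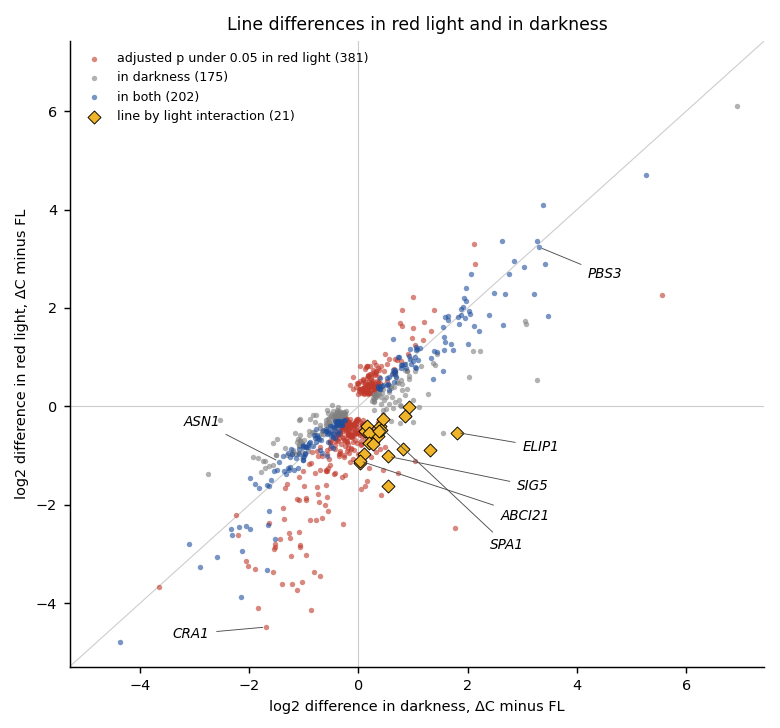
The log2 difference between the lines (ΔC minus FL) in red light, vertical, against that in darkness, horizontal, for every gene with an adjusted p under 0.05 in either, with the 21 interaction genes as diamonds. The diamonds lie below the diagonal, as ABCI21 at -1.11 and 0.02, whereas genes such as PBS3 and ASN1 lie near it.

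Motifs in promoters are given as a description. The G-box CACGTG is bound by PIFs and HY5, and the shorter core ACGT by bZIP factors in general, and both read the same on either strand. Among the 300 bases before each annotated gene start in TAIR10.1, CACGTG was present in 15.7% of the genes lower in ΔC in red light, 8.33% of those higher and 8.04% of all tested genes. ACGT was present in 60.8%, 51.3% and 49%, a count that includes every CACGTG. The promoters of 3 genes lower in ΔC are shown because they hold these motifs, 2 copies of CACGTG in PRR9 and in LNK3 and 4 copies of ACGT with no CACGTG in ABCI21. Each is written 5′ to 3′ on the strand of the gene with the matches in capitals. PRR9 lies on chromosome 2 (chr2:19232307-19232606, plus strand), LNK3 on chromosome 3 (chr3:3923215-3923514, plus strand) and ABCI21 on chromosome 5 (chr5:17755769-17756068, minus strand).
PRR9: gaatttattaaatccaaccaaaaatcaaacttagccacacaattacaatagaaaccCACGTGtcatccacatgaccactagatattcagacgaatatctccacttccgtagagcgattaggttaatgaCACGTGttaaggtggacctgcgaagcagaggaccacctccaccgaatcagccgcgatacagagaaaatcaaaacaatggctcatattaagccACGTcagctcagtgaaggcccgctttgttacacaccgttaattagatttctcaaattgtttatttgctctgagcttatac
LNK3: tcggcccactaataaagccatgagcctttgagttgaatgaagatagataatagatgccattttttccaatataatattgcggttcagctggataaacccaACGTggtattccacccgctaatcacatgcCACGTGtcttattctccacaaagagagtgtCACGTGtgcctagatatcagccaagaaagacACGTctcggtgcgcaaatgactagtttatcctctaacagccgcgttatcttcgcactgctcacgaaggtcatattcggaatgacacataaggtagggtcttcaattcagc
ABCI21: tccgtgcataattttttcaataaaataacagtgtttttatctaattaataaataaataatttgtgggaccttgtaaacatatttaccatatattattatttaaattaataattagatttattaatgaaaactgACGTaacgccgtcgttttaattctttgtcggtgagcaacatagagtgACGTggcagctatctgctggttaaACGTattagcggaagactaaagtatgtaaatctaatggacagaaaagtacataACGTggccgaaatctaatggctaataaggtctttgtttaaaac
ABCI20, HY5, BBX32 and ELF4 held no CACGTG in this window.

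The PIF genes and their helix-loop-helix antagonists were not among the genes called. None of 11 passed in red light or in darkness. Over all genes 2.93% and 1.88% were called, so this does not set a list of 11 apart. PIF1, the factor that the study followed, was at 53.4, 54.2 and 60.4 CPM in FL and 55.1, 60.9 and 57.8 CPM in ΔC (0.05 ± 0.06, adjusted p = 0.751). PIL1, a gene that light switches off within minutes, was at 3.47, 3.74 and 2.99 CPM in FL and 4.39, 4.12 and 4.85 CPM in ΔC after red light, against 62.6 to 86 CPM over the dark libraries. The ΔC values were higher, but the difference of 0.39 ± 0.14 did not pass (adjusted p = 0.171). In both lines the transcript was low after the light.

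Genes of the photosynthetic apparatus did not pass the test in red light. None of 19 light-harvesting antenna genes, 28 photosystem and electron transport genes, 29 chlorophyll and tetrapyrrole synthesis genes or 17 Rubisco and Calvin cycle genes was called. Over all genes 2.93% were called, so the lack of calls does not set lists of this size apart. Among 13 carotenoid genes only ZEP, the zeaxanthin epoxidase, was lower in ΔC (-0.39, adjusted p = 0.0197). Its call was lost without FL library 1, ΔC library 1 or ΔC library 2. FL library 3 had 15977 CPM over the antenna genes together, against 9171 and 8522 CPM in the other FL libraries and 8838 to 11194 CPM in ΔC. The median difference of the antenna genes was -0.16, and without FL library 3 it was 0.18. That of the photosystem genes moved from -0.05 to 0.28. In darkness, where that library enters only through the shared estimate of the spread, the medians were 0.22 and 0.29. There 2 antenna genes and no photosystem gene were called, against 1.88% of all genes. The photosystem median was also positive, at 0.03, without ΔC library 1. Among the fits without 1 red light library, the antenna median was positive only without FL library 3. Without FL library 1 or without FL library 2, 2 of 19 antenna genes were called lower. Over all genes, 254 of 20713 and 301 of 20712 were called lower in those fits. Without FL library 3, 2 of 29 chlorophyll and tetrapyrrole genes and 1 of 17 Calvin cycle genes were called higher. Over all genes, 250 of 20702 were called higher in that fit. The signs of the antenna and photosystem medians in red light therefore changed with single libraries.

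**Figure D3:**
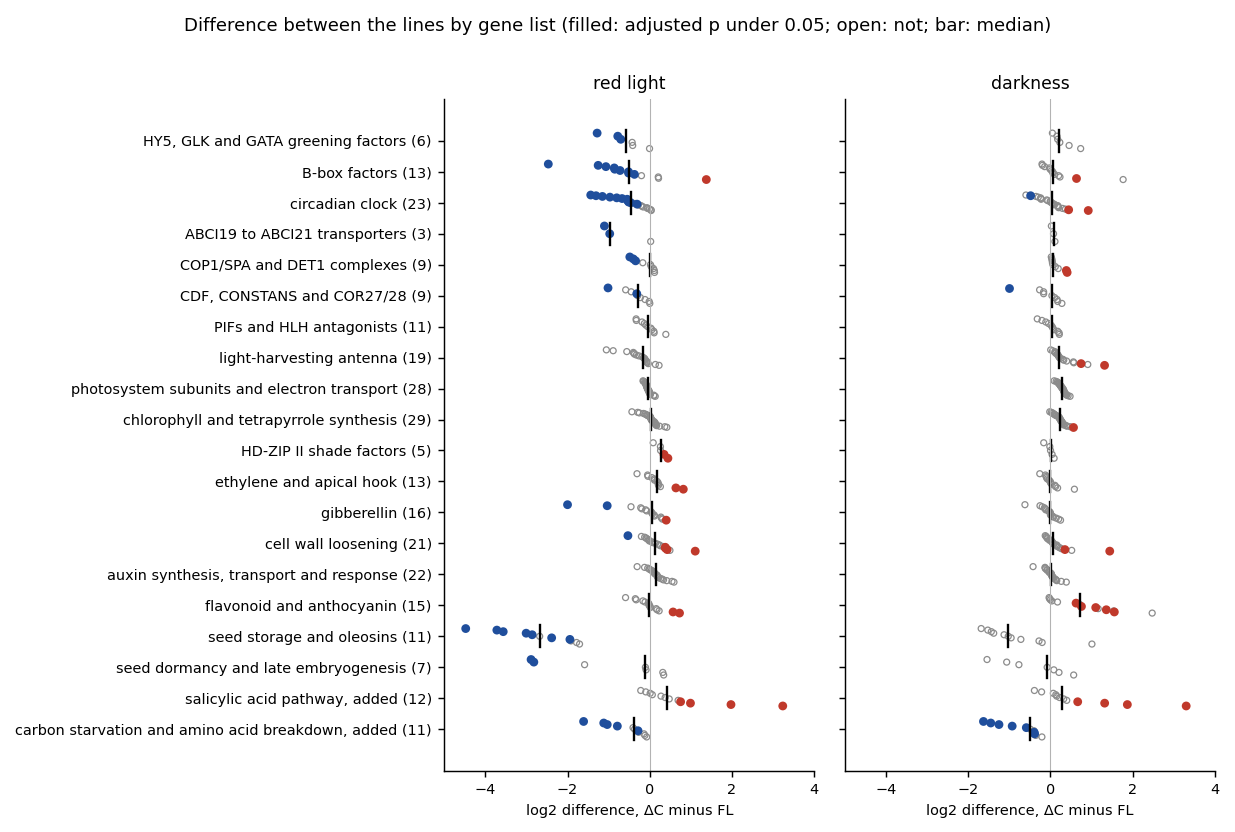
Log2 difference between the lines (ΔC minus FL) of the tested members of 20 gene lists in red light, left, and in darkness, right, with filled points for an adjusted p under 0.05, blue for lower and red for higher in ΔC, and a bar at the median. HY5, GLK and GATA factors, B-box and clock genes lie to the left in red light, with medians of -0.57, -0.52 and -0.46. In darkness their medians are 0.2, 0.06 and 0.03.

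Several genes tied to elongation growth and the apical hook were higher in ΔC in red light, by small amounts. Of 5 HD-ZIP II genes, shade-induced factors that promote elongation, 2 were higher, against 1.11% of all genes. They were HAT2 (0.35 ± 0.07, adjusted p = 0.0146) and HAT3 (0.44 ± 0.1, adjusted p = 0.0268). HAT3 was at 13, 13 and 13.5 CPM in FL and 16.7, 16.9 and 19.9 CPM in ΔC, against 35 to 45.5 CPM over the dark libraries of both lines. Of 13 ethylene and hook genes, 2 were higher, against 1.11% of all genes. They were ACS8, an enzyme of ethylene synthesis (0.82 ± 0.16, adjusted p = 0.0162), and HLS1, which is needed for the hook (0.63 ± 0.15, adjusted p = 0.033). ACS8 was at 1.68, 1.71 and 1.72 CPM in FL and 2.93, 2.71 and 3.35 CPM in ΔC. Both genes were lower after red light than in darkness in each line. These differences lost their calls easily. Without FL library 1 or ΔC library 3 neither HAT2 nor HAT3 passed, and without ΔC library 3 neither ACS8 nor HLS1 did. Without FL library 3, HAT2, HAT3 and ACS8 kept their calls and HLS1 did not.

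Of 21 cell wall loosening genes, 4 were higher and 1 was lower in ΔC in red light, against 1.11% and 1.81% of all genes. The expansin EXPA2 was at 15.5, 19.1 and 12.5 CPM in FL and 33, 37.9 and 30.5 CPM in ΔC (1.11 ± 0.22, adjusted p = 0.0172), and it was also higher in darkness (1.44, adjusted p = 0.00498). EXPA4 was higher under both conditions too (0.38 and 0.35). The xyloglucan-modifying XTH15 was at 239.8, 218 and 230.3 CPM against 278, 302 and 316 CPM (0.38 ± 0.08, adjusted p = 0.0202), far under its 821 to 967 CPM over the dark libraries. XTH17, of the same enzyme family, was higher by 0.42 (adjusted p = 0.0379). EXPA10 was the lower one (-0.53 ± 0.09, adjusted p = 0.00579). Without ΔC library 2 or 3 the counts were 1 higher and 1 lower, without FL library 1 they were 2 and 1, and without FL library 3 they were 5 and 1.

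Among 16 gibberellin genes, 1 was higher and 2 were lower in ΔC in red light, against 1.11% and 1.81% of all genes. GA3OX1, an enzyme that makes the active hormone, was the higher gene (0.4 ± 0.09, adjusted p = 0.0244). GA2OX1, which inactivates gibberellin, was at 12.5, 11.4 and 14.4 CPM in FL and 6.88, 5.94 and 5.94 CPM in ΔC (-1.04 ± 0.21, adjusted p = 0.0159), and under 1 CPM in every dark library. GA3OX2 was scarce at 1.08, 1.49 and 1.39 CPM in FL and 0.255, 0.364 and 0.335 CPM in ΔC (-2 ± 0.39, adjusted p = 0.0149). None of the 3 passed without ΔC library 2 or without ΔC library 3, and all 3 passed without FL library 3. None of 22 auxin, 16 SAUR or 9 brassinosteroid genes was called, with medians of 0.15, 0.01 and 0.07. Over all genes 2.93% were called, so the lack of calls does not set these lists apart.

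Transcripts of seed storage were lower in ΔC in red light by large and variable amounts, with calls that depended on single libraries, as given below. Of 11 genes of storage proteins and oleosins, the coat proteins of oil bodies, 7 were lower in ΔC in red light, against 1.81% of all genes. All 11 had negative differences, and the median was -2.68. The 12S globulin gene CRA1 was at 177, 497 and 376 CPM in FL and at 24.8, 22.6 and 0.544 CPM in ΔC (-4.48 ± 0.93, adjusted p = 0.0197). Its homolog CRC was at 84.2, 271 and 201 CPM against 27.5, 15.7 and 0.586 CPM (-3.72 ± 0.87, adjusted p = 0.036). In both cases ΔC library 3 was far below the other ΔC libraries, and the FL libraries differed among themselves by more than 2-fold. CRB, OLEO1, OLEO4, SESA2 and OLEO2 were the other members called, at -3.57, -3.01, -2.86, -2.39 and -1.94, and SESA2 has close copies among which reads may be split. Of 7 genes of seed dormancy and late embryogenesis tested, only EM1 and RAB18, of proteins of desiccating embryos, were called. Both were lower, against 1.81% of all genes. The median of that list was -0.11, and the dormancy-related genes ABI3 and SOM had positive differences of 0.32 and 0.34 that did not pass. EM1 was at 9.34, 14 and 14.8 CPM in FL and 1.46, 2.75 and 0.837 CPM in ΔC (-2.89 ± 0.49, adjusted p = 0.00637), and the dehydrin RAB18 (AT5G66400) was at 31.6, 44.3 and 43.5 CPM against 6.94, 6.54 and 3.64 CPM (-2.82 ± 0.43, adjusted p = 0.00317).

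Other genes among the largest decreases followed the same sample pattern. PAP85, a vicilin-like seed protein, was at 19.9, 45.1 and 26.8 CPM in FL and 4.39, 5.37 and 0.126 CPM in ΔC (-3.25 ± 0.64, adjusted p = 0.016). AT1G54870, AT1G68250 and AT5G35660, annotated as a Rossmann-fold protein, a protein without known function and a glycine-rich protein, differed by -2.7, -3.6 and -3.03. In each the lowest value was that of ΔC library 3, and all 3 lost the call without ΔC library 2. The summed level of the storage and oleosin genes was 307, 928 and 687 CPM in FL and 83.8, 60.8 and 4.69 CPM in ΔC in red light. In darkness it was 755, 374 and 727 CPM in FL and 483, 121 and 120.2 CPM in ΔC, with overlapping ranges, no gene called and a median of -1.03. In whole seedlings, fewer cells or seeds that still hold such RNA and less RNA per cell cannot be told apart. The list had 7 members called without FL library 1 or without ΔC library 1, 5 without FL library 3, 2 without FL library 2, 1 without ΔC library 3 and none without ΔC library 2. EM1 and RAB18 stayed called in all of these. None of 11 genes of seed oil mobilization and none of 6 root markers was called, against 2.93% of all genes. All 6 root markers had negative differences in red light, with medians of -0.36 in red light and -0.77 in darkness. Their summed level in red light was 8379 to 10153 CPM in FL and 7911 to 8238 CPM in ΔC. In darkness it was 8983 to 9933 CPM in FL and 7519 to 8442 CPM in ΔC. Whether the share of root tissue differed between the lines was not tested.

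**Figure D4:**
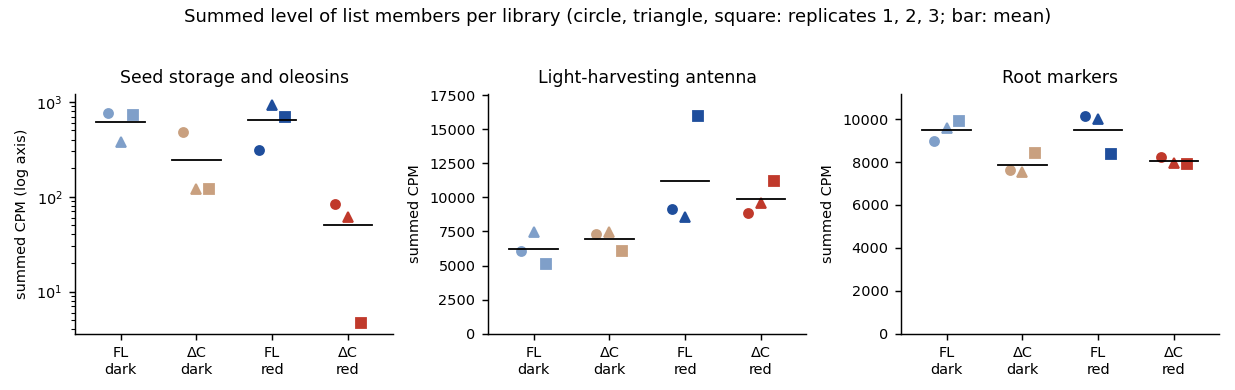
Summed CPM of the tested members of 3 lists in each library: seed storage and oleosin genes on a log axis, and light-harvesting antenna genes and root markers on linear axes from 0. The storage sum of ΔC in red light is 4.69 to 83.8 CPM, below the 307 to 928 CPM of FL, and the antenna sum of FL library 3 in red light, 15977 CPM, stands above all others.

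Another group of differences was present in darkness before the red light. In darkness 384 genes (1.88%) differed between the lines, 164 higher (0.802%) and 220 lower (1.08%) in ΔC. Of these, 202 were called with the same direction in red light, 86 higher and 116 lower, which is 33.7% of the red light calls and 52.6% of the dark calls. SPA1 and SPA3 were the 2 genes called in opposite directions. The comparisons used separate libraries of the same lines. The count in darkness was 121 to 745 when single libraries were left out, lowest without ΔC dark library 2 and highest without FL red library 3, and leaving out any dark library lowered it by more than 1.5 times. The 10 genes with the largest increases in red light, among called genes with a mean log2 CPM of 3 or more and no overlap between the lines, were also called higher in darkness. PBS3, an enzyme of salicylic acid synthesis, was at 1.98, 2.92 and 1.33 CPM in FL and 21.4, 20.8 and 16.9 CPM in ΔC in red light (3.24 ± 0.29, adjusted p = 7.66e-05). In darkness it differed by 3.3 ± 0.28 (adjusted p = 4.52e-05), with an interaction of -0.07. ICS1, which makes its precursor, was at 27.1, 35.3 and 34.1 CPM against 62, 70.1 and 59.5 CPM (0.99 ± 0.15, adjusted p = 0.00318). ICS1 was the 1 gene called of 5 tested in the list of salicylic acid and immunity genes, against 1.11% of all genes called higher. The median of that list was 0.06, with PR1 at -0.94 (adjusted p = 0.338) and PAD4 at -0.22 (adjusted p = 0.402). In a longer list of the salicylic acid pathway drawn up after the calls were seen, which supports nothing by itself, 4 of 12 tested genes were higher under both conditions, against 1.11% and 0.802% of all genes. Beside PBS3 and ICS1 they were WRKY46, an immune transcription factor (1.98, adjusted p = 9.3e-05), and SAG101, a partner of the immune regulator EDS1 (0.75, adjusted p = 0.000508). All 4 kept their calls without each red light library in turn.

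Beside PBS3 and BBX23, the genes of that set were AT4G36430, a peroxidase (2.29), AATP1, an AAA-ATPase (2.01), AT1G43910, a protein of the P-loop hydrolase family (1.88), AT1G21520 (1.86), PELPK1, a cell wall protein (1.79), PFK3, a phosphofructokinase of glycolysis (1.32), AT5G24210 (1.27) and AT5G04120, of the phosphoglycerate mutase family (1.18). Each was also higher in darkness, by 1.12 to 2.68. AT5G24210 lost the call without ΔC library 2, and PELPK1 without FL library 2 or 3 or ΔC library 2 or 3. ADH1, alcohol dehydrogenase of the response to low oxygen, was at 14.7, 14.6 and 11.4 CPM in FL and 38, 32.2 and 21.9 CPM in ΔC (1.17 ± 0.22, adjusted p = 0.013). HB1, a haemoglobin of the same response, was higher by 1.06 (adjusted p = 0.0453). The call of ADH1 was lost without ΔC library 2 and that of HB1 without most single libraries. CHS and FLS1, of flavonoid synthesis, were higher in ΔC in red light (0.72, adjusted p = 0.0181, and 0.57, adjusted p = 0.046). They were the 2 called of 15, against 1.11% of all genes called higher. Neither passed without FL library 1, FL library 2, ΔC library 2 or ΔC library 3. In darkness 5 of the 15 were higher, against 0.802% of all genes. CHS was then at 28.2 to 36.3 CPM in FL and 88.3 to 101 CPM in ΔC (1.56, adjusted p = 0.000124).

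Several genes of amino acid breakdown and carbon starvation were lower in ΔC. In a list drawn up after the calls were seen, 5 of 11 such genes were lower in red light and 7 in darkness, against 1.81% and 1.08% of all genes, which supports nothing by itself. ASN1, the asparagine synthetase induced in starved tissue, was at 262, 252 and 232 CPM in FL and 135, 107 and 102 CPM in ΔC in red light (-1.12 ± 0.13, adjusted p = 0.000342). It differed by -1.45 in darkness (adjusted p = 5.23e-05). BCAT-2, a branched-chain aminotransferase, was at 60.3, 57.9 and 67.9 CPM against 32.3, 29.4 and 29.2 CPM (-1.04 ± 0.11, adjusted p = 0.000167), and THA1, a threonine aldolase, differed by -1.61 in red light and -1.63 in darkness. The other 2 of the list called in red light were DIN4 (-0.29, adjusted p = 0.0486) and BGLU30 (-0.79, adjusted p = 0.0309), and 3 of the list were called without FL library 1, FL library 2, ΔC library 2 or ΔC library 3, and 6 without FL library 3. Further decreases shared by darkness and red light were AT1G67105, a noncoding RNA, at 21.1, 25.1 and 26.4 CPM in FL and 4.58, 4.77 and 3.68 CPM in ΔC (-2.48 ± 0.16, adjusted p = 5.4e-06), AT4G07820, of the pathogenesis-related CAP family (-2.61 and, in darkness, -2.32), and AT3G02620, an acyl-ACP desaturase (-1.65 and -1.81).

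**Figure D5:**
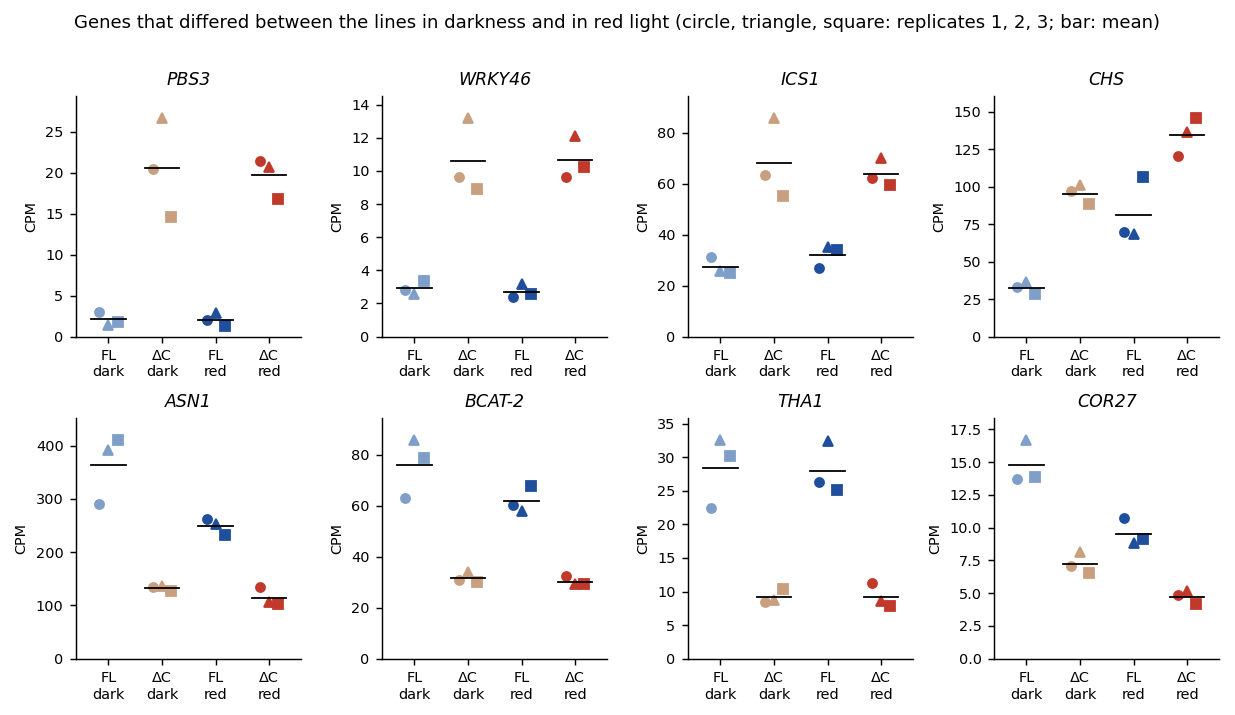
CPM of 8 genes that differed between the lines in darkness and in red light, in each of the 12 libraries, with the mean of each group as a bar. PBS3, WRKY46, ICS1 and CHS lie higher, and ASN1, BCAT-2, THA1 and COR27 lower, in ΔC under both conditions.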

How the data were processed

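The 12 phyB-GFP libraries (3 each of FL and ΔC, in darkness and in red light) were analysed. According to the methods, the authors mapped reads with TopHat and Bowtie2 against TAIR10 and deposited the raw counts that HTSeq assigned to each gene, without normalization. The strand mode of counting is not given in the sources used here, so overlapping genes (among them RVE3, SPA3, SPA4, LNK3, BBX24, BBX25, BBX32, CHS, EXPA2, XTH15, OLEO1, RAB18, ADH1 and PIF1) carry uncertain counts. All 32548 loci matched RefSeq TAIR10.1, which gave symbols, positions and promoters. The labels and the methods give different fluence rates for the red light, and neither was used.

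Counts were tested with edgeR 4.0.16 in R 4.3.3 (TMM factors, filterByExpr, quasi-likelihood test, p-values adjusted after Benjamini-Hochberg across every tested gene) in 1 fit of the 4 groups. Floors cover counting error only. Calls needed an adjusted p under 0.05. Named genes were the 10 largest increases and decreases among called genes whose log2 CPM averaged 3 or more and with libraries of the lines that did not overlap, up to 4 called members of each gene list by p-value, and PHYA, PHYB, PIF1, SPA1 to SPA4, COP1, HY5 and PIL1. Further members and interaction genes were named after their values were seen. The gene lists and members were chosen with earlier results of these data known, and the PIF lists were read from the study's supplement. DESeq2 1.42.0, other normalizations, filters, fits, fold limits, a replicate block and the omission of each library were tried as alternatives. The edgeR script was tested on simulated data.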

Additional observations from a re-analysis of the deposited data

Results flagged for a closer look

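For 21 genes the difference between ΔC and FL in red light was not the same as that in darkness by the test of the interaction, and these values, on the log2 scale, were all negative: ABCI21 (-1.13), ABCI20 (-1.09), SPA1 (-0.79), SIG5 (-1.56), AT5G15950 (-1.04), RPT2 (-0.96), ELIP1 (-2.34), TZP (-1.04), LHY (-0.93), SPA3 (-0.89), LNK3 (-0.72), SQE3 (-0.87), SMZ (-0.94), AT1G78820 (-0.73), RAP2.7 (-0.55), ELF4 (-1.19), PKS1 (-0.61), AT1G60590 (-1.68), LHCB1.1 (-2.21), AT2G46420 (-0.71), AT3G56290 (-2.15). Of these, AT3G56290, AT1G78820, AT2G46420 and AT1G60590 are named by their loci, AT5G15950 is an S-adenosylmethionine decarboxylase gene, SQE3 a squalene epoxidase, and SMZ and RAP2.7 are AP2 repressors of flowering. LHCB1.1 was at 268, 267 and 578 CPM in FL and 177, 197 and 226 CPM in ΔC in red light, with FL library 3 highest, and its part in that value was not tested beyond leaving it out. No group of 3 libraries was tested for single outlying samples.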

How the results depend on the processing

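The number of genes that differed in red light, 599, was 599 with DESeq2 size factors, 617 with library size alone, 645 with every gene of at least 1 count and 500 with at least 10 counts in every library. It was 342 past 1.5-fold, 117 past an absolute log2 of 1.5, 926 with DESeq2 (595 shared), 1303 in a fit of all 21 libraries and 259 in a fit of the 6 libraries alone. The number in darkness, 384, was 243 past 1.5-fold, 84 past an absolute log2 of 1.5, 681 with DESeq2 and 915 in the fit of 21 libraries. The interaction passed for 21 genes, and for 5 past an absolute log2 of 1.5, 80 with DESeq2, 32 with every gene of at least 1 count and 105 in the fit of 21 libraries. Leaving out each library gave 209 to 636 genes in red light, 121 to 745 in darkness and 6 to 38 for the interaction. The causes were not tested. With the replicate number as a block the counts were 395, 245 and 9. The deviations of same-numbered FL and ΔC red light libraries correlated at 0.0187, -0.0538 and 0.275, against -0.336 to 0.363 for different numbers. In darkness same-numbered libraries correlated at 0.173, 0.0548 and 0.14, against -0.163 to 0.0113 for different numbers. Whether the numbers pair the libraries is therefore not settled, and the main fit used no pairing. Of 66 named genes 61 were called, 30 of them under every alternative and 31 not under at least 1, most often without ΔC red library 2 (26) or 3 (23) and in the fit of 6 libraries (20). The difference of PHYB, which was not called, turned from 0.13 to -0.021 without FL red library 3 and was 0.26 without FL red library 2. Precision is limited by 3 libraries in each group.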

Other observations

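Among genes that the study's supplement lists as induced by PIFs and as differing in the spaQ mutant in red light, a choice made on other libraries of the series, 36 of 495 tested (7.27%) were higher and 45 (9.09%) lower in ΔC in red light, against 1.11% and 1.81% of all genes, with a median difference of 0.04. Among those listed as repressed by PIFs, 10 of 531 (1.88%) were higher and 21 (3.95%) lower, with a median of -0.07. Without FL library 3 the counts were 39 and 54, and 17 and 28. They were 19 and 18, and 3 and 9, without ΔC library 2. In darkness 11 of the 495 were higher and 38 lower in ΔC, against 0.802% and 1.08% of all genes. Of the 531, 18 were higher and 10 lower in darkness. The interaction passed for 1 gene of the induced list and 2 of the repressed list.

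The noncoding RNA AT2G01422, chosen after its values were seen, had the largest decrease of all genes called in red light. It was at 8.98, 11.3 and 14.6 CPM in FL and 0.255, 0.364 and 0.586 CPM in ΔC (-4.78 ± 0.28, adjusted p = 4.45e-06), and it differed by -4.36 in darkness. The small heat shock protein gene HSP17.6A was lower in ΔC in red light (-3.05, adjusted p = 0.023) and in darkness (-2.58, adjusted p = 0.0467), with FL values of 1.32, 6.66 and 2.22 CPM and ΔC values of 0.637, 0.485 and 0.167 CPM, and its call in red light was lost without FL library 2, ΔC library 2 or ΔC library 3.

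The evening element AAAATATCT, a motif of clock-controlled genes added after the data were seen and searched on both strands, was present in 4.86% of the promoters of genes lower in ΔC in red light, 1.75% of those higher and 2.83% of all tested genes. Among the genes named here it was found in the windows of PRR5, TOC1, FKF1, RVE7, BBX24, COR27 and RAB18, lower in ΔC in red light, of FLS1 and AT5G24210, higher in ΔC, and of TZP, not called in red light.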
